A study of Mus musculus with 8 samples.

Results

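Cholesterol handling was described in peritoneal mesothelial cells (MCs) through 35 genes chosen by name: 18 enzymes of cholesterol synthesis, 2 uptake receptors, 3 efflux genes, 4 genes of intracellular transport and esterification and 8 genes of sterol sensing and transcription. All 35 were among the 13687 genes measured. MCs had been isolated from the parietal peritoneum of WT mice and of CAV1−/− mice (labelled Cav-1-, strain B6.Cg-CAV1tm1mls/J), which are deficient in caveolin-1, and RNAseq was performed on static cultures and on cultures stretched for 24 h. There were 2 animals per genotype, named here WT 1, WT 2, CAV1−/− 1 and CAV1−/− 2, and each gave 1 static and 1 stretched culture, which makes 8 libraries in 4 groups of 2. All cultures were grown in medium with fetal calf serum, WT mice were littermates, and neither age nor sex is given per sample. Values are TMM-normalized CPM, that is the reads of a gene relative to the total of its library after scaling of the totals by the TMM method. Fold changes are differences of log2(value + 1), tested by limma across 13665 genes (those reaching 1 in 2 or more libraries) with Benjamini-Hochberg adjustment, and a gene was called at an adjusted p under 0.05.

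Cells make cholesterol from acetyl-CoA through the mevalonate pathway, and the transcription factor SREBP-2 (Srebf2) switches on most enzymes of that pathway when membrane sterol is low. SREBPs leave the endoplasmic reticulum with their escort Scap, and the Insig proteins hold that complex back when sterol is plentiful. Excess sterol is esterified by Soat1 or, through the oxysterol receptors LXR-alpha (Nr1h3) and LXR-beta (Nr1h2), exported with the help of Abca1, Abcg1 and apolipoprotein E. Caveolae, the plasma membrane pits that caveolin-1 builds, are rich in cholesterol, and caveolin-1 itself binds it.

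The libraries held 9777738 to 21203938 reads, and every stretched library (at least 15861571 reads) was deeper than every static one (at most 14237503), so depth and stretch cannot be told apart here. Cav1, the targeted gene, was at 247 to 764 TMM-normalized CPM in the WT cultures and at 12.8 to 34.5 in the CAV1−/− cultures. Of 14 mesothelial markers 12 had values, and their sum was 3115 to 4115 in WT and 924 to 1177 in CAV1−/− cultures. The log2 fold change of CAV1−/− over WT was below 0 for all 12 in static cultures (median −2.27), against 7137 of 13665 genes. It was also below 0 for all 12 in stretched cultures (median −2.56), against 6834. The size differed between markers. Gpm6a was at 44.5 to 119 in WT and at 1.31 to 8.24 in CAV1−/− cultures, and Wt1 at 94.9 to 133 and at 74.9 to 138. All 15 leukocyte markers with values were higher in both cultures of CAV1−/− 1 than in the other 6 cultures, with a sum of 4863 and 4874 there against 76.6 to 469 elsewhere, and none was at 0 in any culture. The sum of 8 fibroblast markers was 11000 to 12169 in WT 1 and CAV1−/− 1 and 18152 to 26349 in WT 2 and CAV1−/− 2. The part of these markers in the values below was not tested. In such bulk samples fewer cells of a type and less RNA per cell cannot be told apart.

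Members of one pathway can be compared by their promoters. RefSeq (GRCm38.p6) gave a start site for 28 of the 35 genes, 39 starts in all, and Abcg1, Fdft1, Fdps, Npc1, Scarb1, Sqle and Stard4 had no entry. In the 250 bases before each start 4 motifs were searched on both strands: the sterol regulatory element TCACNCCAC bound by SREBPs, CCAAT, the box of the factor NF-Y that acts beside SREBPs, the E-box CACGTG, and the LXR element DR4, which is AGGTCA repeated after any 4 bases. The windows shown are those of the enzymes with the strongest stretch difference (Idi1, Cyp51, Msmo1) and of Hmgcs1, the enzyme with an exact match to TCACNCCAC. Soat1, the esterifying enzyme that separated the genotypes, the main exporter Abca1 and the sterol sensor Insig1 are shown too. All read 5′ to 3′, with capitals marking the motifs found on either strand (CCAAT on the other strand reads ATTGG). Only the exact letters of the 4 motifs were searched, so variants of a motif stay unmarked.

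Hmgcs1: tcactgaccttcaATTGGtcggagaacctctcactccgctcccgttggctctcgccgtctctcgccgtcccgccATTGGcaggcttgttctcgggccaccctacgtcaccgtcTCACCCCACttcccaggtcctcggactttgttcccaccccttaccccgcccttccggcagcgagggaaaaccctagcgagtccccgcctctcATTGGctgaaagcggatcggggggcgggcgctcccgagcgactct
Idi1: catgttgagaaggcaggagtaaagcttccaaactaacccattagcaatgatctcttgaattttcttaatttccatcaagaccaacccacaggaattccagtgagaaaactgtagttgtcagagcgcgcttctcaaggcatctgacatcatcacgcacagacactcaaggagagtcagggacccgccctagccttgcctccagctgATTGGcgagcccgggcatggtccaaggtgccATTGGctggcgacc
Cyp51: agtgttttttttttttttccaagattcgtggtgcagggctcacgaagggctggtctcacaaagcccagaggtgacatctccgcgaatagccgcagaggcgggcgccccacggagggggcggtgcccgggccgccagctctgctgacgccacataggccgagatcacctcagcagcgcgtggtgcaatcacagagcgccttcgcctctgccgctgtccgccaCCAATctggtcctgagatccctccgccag
Msmo1: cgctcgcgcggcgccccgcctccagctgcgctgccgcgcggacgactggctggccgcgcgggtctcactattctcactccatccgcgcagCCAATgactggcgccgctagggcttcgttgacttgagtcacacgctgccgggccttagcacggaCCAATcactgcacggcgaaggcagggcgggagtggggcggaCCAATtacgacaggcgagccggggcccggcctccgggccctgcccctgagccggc
Soat1: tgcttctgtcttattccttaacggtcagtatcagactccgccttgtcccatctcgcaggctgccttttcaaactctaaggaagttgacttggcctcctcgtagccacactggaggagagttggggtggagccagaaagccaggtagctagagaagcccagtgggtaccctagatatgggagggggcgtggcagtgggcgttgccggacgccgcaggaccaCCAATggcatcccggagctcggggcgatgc
Abca1: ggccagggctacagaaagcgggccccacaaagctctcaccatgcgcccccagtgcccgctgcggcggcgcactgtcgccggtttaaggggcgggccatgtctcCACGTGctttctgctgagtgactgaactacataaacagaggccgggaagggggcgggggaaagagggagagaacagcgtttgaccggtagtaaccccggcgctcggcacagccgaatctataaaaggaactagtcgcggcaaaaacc
Insig1: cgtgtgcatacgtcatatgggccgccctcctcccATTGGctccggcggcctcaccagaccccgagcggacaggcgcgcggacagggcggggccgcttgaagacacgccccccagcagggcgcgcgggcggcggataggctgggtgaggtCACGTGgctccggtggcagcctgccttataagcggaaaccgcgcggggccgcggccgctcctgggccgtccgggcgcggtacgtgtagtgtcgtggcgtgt

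These windows lie on GRCm38.p6 at chr13:119690101-119690350 (plus strand) for Hmgcs1, chr13:8885356-8885605 (plus strand) for Idi1, chr5:4104698-4104947 (minus strand) for Cyp51 and chr8:64733579-64733828 (minus strand) for Msmo1. Those of the other genes lie at chr1:156474329-156474578 (minus strand) for Soat1, chr4:53159896-53160145 (minus strand) for Abca1 and chr5:28071162-28071411 (plus strand) for Insig1. The sterol regulatory element of Hmgcs1 starts at position −137 from the start site, between CCAAT boxes at −176 and −45. It was the only exact match to this motif in the 39 member windows (2.56%), while 1.05% of the 32851 mouse promoter windows hold one. Members without an entry were not searched. CCAAT occurred in at least 1 window of 14 of the 15 enzymes with an entry (14 of their 18 windows, 77.8%) against 33.8% of all windows, and Acat2 was the enzyme without it. CACGTG was found in 6 of the 39 member windows (15.4%; Abca1, Dhcr7, Hsd17b7, Insig1, Sc5d and Scap) and in 6.02% of all. The exact AGGTCA repeat searched for as the LXR element was in 0 of the 39 and in 0.0152% of all. This says only that these letters are not in these windows, and diverged forms of the element were not searched. A match is a description of the sequence and no evidence of binding in these cells.

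To compare levels between genes, mean values over the 8 cultures were divided by exon length, that is all annotated exons of a gene merged. This length can exceed that of the main transcript, which lowers the level per kb of such a gene. Lss, for example, had a mean of 103 TMM-normalized CPM over 10787 bases. On this per-kb scale Lrp1, a large endocytic receptor for lipoproteins, stood first with 117 TMM-normalized CPM per kb. Npc2, the lysosomal cholesterol carrier, had 103, Hmgcs1, which makes HMG-CoA, 68.5, Apoe, the apolipoprotein that carries exported sterol, 67.8, and Cyp51, which demethylates lanosterol, 65.4. Among the enzymes the level then went down to 9.52 per kb for Lss, which closes the sterol ring, 7.96 for Dhcr7, which makes cholesterol from 7-dehydrocholesterol, and 1.80 for Tm7sf2, a sterol reductase. Srebf2 (37.8 per kb) was above Srebf1 (16.7), which drives mainly fatty acid synthesis, and Nr1h2 (18.9) far above Nr1h3 (0.63). Abcg1, the exporter to mature HDL, had 0.63 per kb and Mylip, a ubiquitin ligase that degrades lipoprotein receptors, 2.01. Neighbours in this order such as Hmgcs1, Apoe and Cyp51 did not differ beyond their spread over the cultures.

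In WT MCs stretch went with higher levels of 17 of the 18 enzymes of cholesterol synthesis (all but Mvk, mevalonate kinase), and their median log2 fold change was 0.34. Of all genes tested 46.8% were higher and the median was −0.02. None of the 35 members was called by limma, and neither was any of the 13665 genes (0%). At an unadjusted p of at most 0.05 the only member was Idi1 (0.82% of all genes were higher at that level), and edgeR (0% of all genes) and DESeq2 (0.022%) on the recovered reads called 0 members as well. The difference was uneven between the animals. In WT 1 all 18 enzymes were higher in the stretched culture with a median of 0.53, and in WT 2, which is what remains without WT 1, 16 of 18 were, with a median of 0.17.

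**Figure D1:**
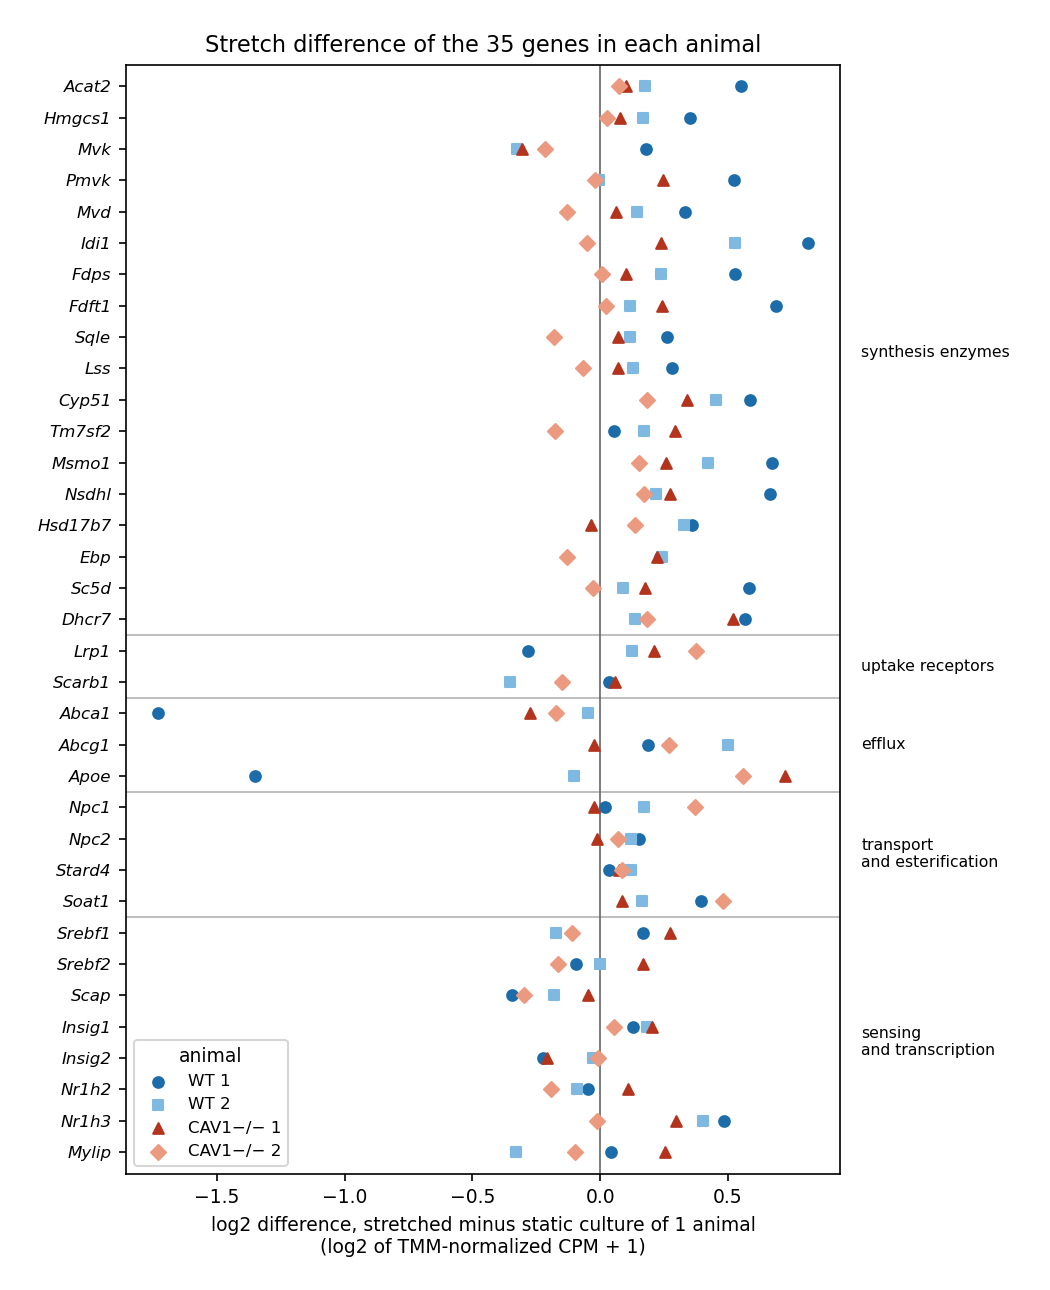
Difference between the stretched and the static culture of each animal (log2 of TMM-normalized CPM + 1, horizontal axis) for the 35 genes, with 1 symbol per animal. The enzymes of WT 1 (dark blue circles) lie between 0.05 and 0.81, Abca1 and Apoe of WT 1 lie at −1.73 and −1.35, and the enzymes of CAV1−/− 2 (light red diamonds) lie on both sides of 0.

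The stretched culture of WT 1 held the highest value of the 8 cultures for 16 of the 18 enzymes and for 20 of the 35 members, whereas 11.8% of all genes peaked there. The exceptions among the enzymes were Mvk and Ebp, the sterol isomerase. Its library had 19631136 reads, and its 12 mesothelial markers summed to 3115, the lowest of the WT cultures, beside a leukocyte marker sum of 469, close to the 453 of its static counterpart. Their part in this result was not tested.

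Idi1, which isomerizes isopentenyl diphosphate, had the largest difference among the enzymes in WT MCs. Its TMM-normalized CPM were 153 (WT 1) and 116 (WT 2) in static and 269.6 and 168 in stretched cultures, a log2 fold change of 0.67 (SE 0.25, unadjusted p = 0.0371, adjusted p = 1.0 from limma). Limma with the animal as a block, which compares the cultures of each animal, gave an unadjusted p of 0.000732 and an adjusted p of 0.148. Idi1 was thus not called in either fit. In CAV1−/− MCs Idi1 was at 129 (CAV1−/− 1) and 155 (CAV1−/− 2) in static and at 152 and 149 in stretched cultures. Both stretched WT cultures thus exceeded both static ones, while the CAV1−/− cultures overlapped. Of the 61-base windows of Idi1 24.5% also occur in other annotated genes, mainly Gm13502 and Gm48574, so its reads could be split.

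Hmgcs1, the entry into the mevalonate branch, was at 311 and 300.4 in static and at 397 and 338 in stretched WT cultures, and at 247 and 328 in static and 260.2 and 335 in stretched CAV1−/− cultures. Its stretch difference was thus positive in every animal but small beside the spread between CAV1−/− 1 and CAV1−/− 2. Fdps, which makes farnesyl diphosphate, was at 194 and 143 in static and at 281 and 168 in stretched WT cultures, and at 198 and 192 in static and 213 and 193 in stretched CAV1−/− cultures. The static and stretched WT groups of Fdps overlapped, and 24.8% of its 61-base windows are shared, mostly with Gm43738.

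Cyp51, the lanosterol demethylase (ENSMUSG00000001467, GRCm38 chr5:4081145-4104746), was higher on stretch in all 4 animals. It was at 266 and 226 in static and at 399.7 and 310.3 in stretched WT cultures. CAV1−/− MCs had 209 and 297 in static and 265 and 337 in stretched cultures. Averaged over both genotypes its log2 fold change was 0.39 (SE 0.17, adjusted p = 0.984 from limma). With the animal as a block, which compares the cultures of each animal with one another, the SE was 0.061 and the adjusted p 0.0437, so Cyp51 was the only member called. That fit called 201 of the 13665 genes (1.47%), of which 84 were higher on stretch (0.615%). The quasi-likelihood test of edgeR with the same block gave Cyp51 an adjusted p of 0.0588 while calling 1.11% of all genes, and without either WT 1 or CAV1−/− 1 its mean log2 fold change was 0.36 and 0.35.

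Msmo1, a sterol methyl oxidase of the later steps, was at 196 and 119 in static and at 313 and 161 in stretched WT cultures. It was at 168 and 142 in static and at 201 and 158 in stretched CAV1−/− cultures, so each animal was higher on stretch although the groups overlapped. Its mean log2 fold change was 0.38 (SE 0.26, adjusted p = 0.991 from limma, 0.0583 with the animal as a block). Nsdhl, which removes the C4 carboxyl groups, was at 51.0 and 36.9 in static and at 81.5 and 43.1 in stretched WT cultures, and at 42.7 and 42.5 in static and 51.8 and 48.0 in stretched CAV1−/− cultures. Dhcr7, the last enzyme of one branch, was at 41.1 and 34.6 in static and at 61.5 and 38.1 in stretched WT cultures, and at 41.0 and 44.2 in static and 59.3 and 50.4 in stretched CAV1−/− cultures. Dhcr7 had the same log2 fold change, 0.35, in both genotypes (SE 0.24, adjusted p = 1.0 from limma in each; 0.02 in WT without the stretched culture of WT 1), and its stretched CAV1−/− cultures were above both static ones.

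**Figure D2:**
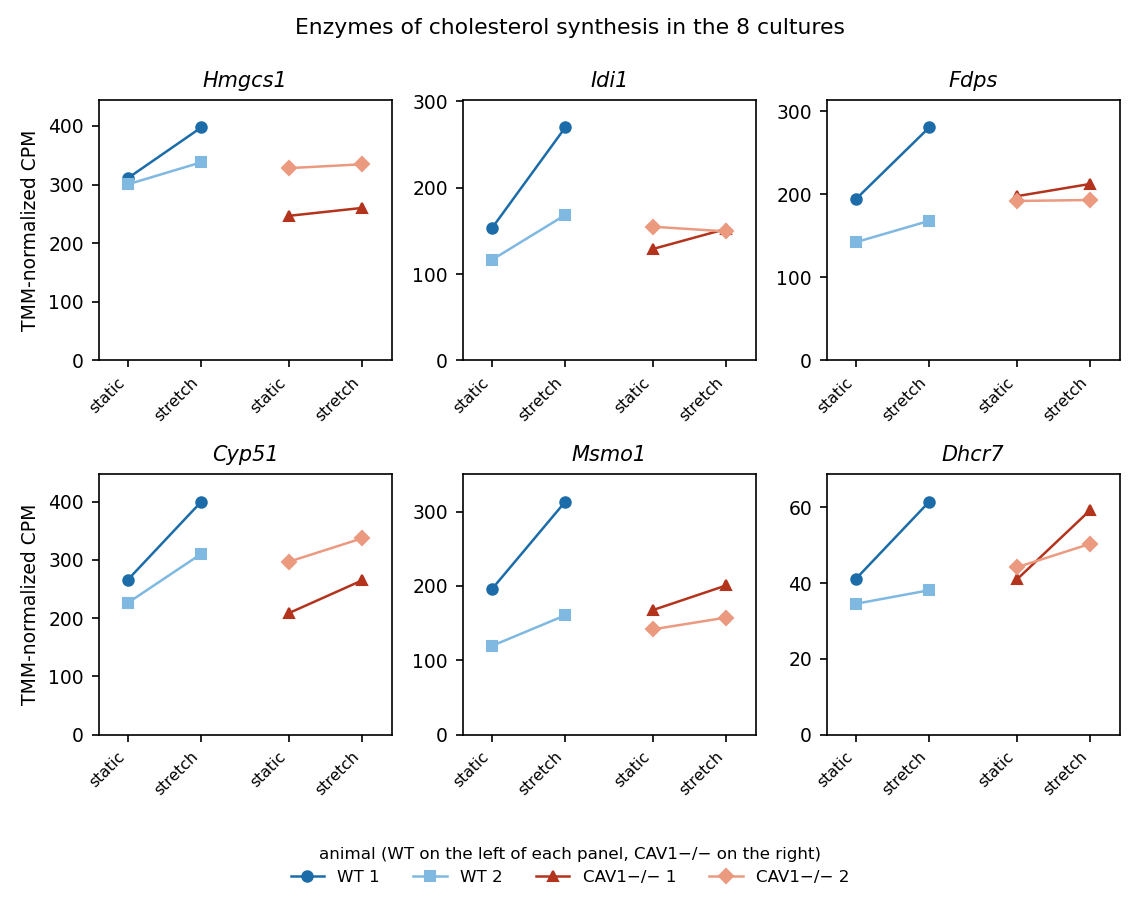
TMM-normalized CPM of 6 enzymes of cholesterol synthesis in the 8 cultures, with a line joining the static and the stretched culture of each animal. Cyp51 and Msmo1 go up in all 4 animals, Idi1 goes up in both WT animals and in CAV1−/− 1 only, and the stretched culture of WT 1 is the highest point in every panel.

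Taking all members, 11 of 35 (31.4%) were higher on stretch in each of the 4 animals, against 14.5% of all genes. They were 8 enzymes (Acat2, Hmgcs1, Fdps, Fdft1, Cyp51, Msmo1, Nsdhl and Dhcr7) with Stard4, Soat1 and Insig1. The 3 members that were lower in each animal were Abca1, Scap and Insig2 (8.57%, against 16.9% of all genes). For the mean stretch difference no member was called by limma without a block (0% of all genes called). At an unadjusted p of at most 0.05 there were 1 member higher (Soat1, against 2.19% of all genes) and 0 lower (2.55%), and edgeR (0% of all genes) and DESeq2 (0.263%) called 0 members. With the animal as a block 12 of 35 members were higher at an unadjusted p of at most 0.05, against 9.47% of all genes, and 1 was lower (Scap, the SREBP escort), against 11.5%. In WT MCs alone the same block gave 11 members higher (6.06% of all genes) and 3 lower (8.42%), and in CAV1−/− MCs 3 higher (6.58%) and 0 lower (6.77%).

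Other enzymes had smaller or less uniform differences. Sqle, the squalene epoxidase, Lss, Mvd (mevalonate diphosphate decarboxylase), Sc5d (a sterol desaturase) and Idi1 were higher on stretch in WT 1, WT 2 and CAV1−/− 1 and lower in CAV1−/− 2. The same held for Ebp, the isomerase, and for Tm7sf2. Hsd17b7, a 3-ketosteroid reductase, was higher in both WT animals and in CAV1−/− 2, with a WT log2 fold change of 0.34 (SE 0.15, adjusted p = 1.0 from limma). Pmvk, phosphomevalonate kinase, was higher in WT 1 and CAV1−/− 1 only, and Mvk was higher in WT 1 only. Acat2, which makes acetoacetyl-CoA, and Fdft1, which makes squalene, had WT log2 fold changes of 0.36 and 0.40 with adjusted p = 1.0 from limma. Without the stretched culture of WT 1 they became −0.04 and −0.02. Acat2 shares 36.8% of its 61-base windows with other genes, mainly Acat3, so its reads could be split, and Fdft1 overlaps exons of Ctsb on the other strand, which makes it uncertain where strand was not used in counting.

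In CAV1−/− MCs the stretch difference of the enzymes was smaller. Of 18 enzymes 15 were higher on stretch (50% of all genes), and their median log2 fold change was 0.07 against 0.00 over all genes. No member was called by limma (0% of all genes), none had an unadjusted p of at most 0.05 (1.08% of all genes were higher and 1.02% lower at that level), and edgeR (0%) and DESeq2 (0.0512%) called 0 members. Animal CAV1−/− 1 had 16 of 18 enzymes higher with a median of 0.20, and CAV1−/− 2 had 9 of 18 with a median of −0.01. The CAV1−/− median therefore came from CAV1−/− 1, the animal whose leukocyte markers summed to 4863 in static and 4874 in stretched culture, against 309 and 340 in CAV1−/− 2. Their part in the result was not tested.

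For 17 of the 18 enzymes the log2 fold change on stretch was smaller in CAV1−/− MCs than in WT ones and for Dhcr7 it was equal, the median difference being −0.25, whereas 47.4% of all genes were below 0. For single genes the genotype by stretch interaction was not called for any member (0% of all genes), no member had an unadjusted p of at most 0.05 (0.351% of all genes above and 0.132% below 0), and edgeR and DESeq2 called 0. The largest interaction among the enzymes was that of Idi1, with a log2 value of −0.58 (SE 0.36, adjusted p = 1.0 from limma, 0.947 with the animal as a block). Cyp51 had −0.26. With the animal as a block 1 member was above 0 at an unadjusted p of at most 0.05 (Apoe, against 2.74% of all genes) and 2 were below (Idi1 and Msmo1, against 1.51%), and none was called. Without both cultures of WT 1, 13 of 18 enzymes were below 0 with a median of −0.12. No single enzyme thus passed the threshold for a different stretch response with 2 animals per genotype.

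In static cultures 6 of the 18 enzymes were higher and 12 lower in CAV1−/− MCs, and their median log2 fold change was −0.03 (47.8% of all genes were higher, median −0.01). This direction turned when an animal was left out, 11 of 18 being higher without WT 1 (median 0.12) and also without CAV1−/− 1 (median 0.06). In stretched cultures 17 of 18 were lower in CAV1−/− MCs, all but Dhcr7, with a median of −0.31 against 0.00 over all genes, of which 50% were lower. The stretched value depended on WT 1, since without both of its cultures 10 of 18 were lower with a median of −0.05. Limma called 0 of 35 members in either comparison, while 10 genes (0.0732%) were called in static and 8 (0.0585%) in stretched cultures. At an unadjusted p of at most 0.05 there were 1 member higher (Soat1; 2.76% of all genes) and 1 lower (Stard4; 5.42%) in static CAV1−/− cultures. In stretched cultures there were 1 higher (Soat1; 2.44%) and 2 lower (Stard4 and Ebp; 3.82%). The quasi-likelihood test of edgeR called 0 members in both (0.0146% of all genes in static and 0.0439% in stretched cultures). DESeq2 called 1 of 35, Soat1, in each, against 2.33% of all genes in static and 1.76% in stretched cultures.

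**Figure D3:**
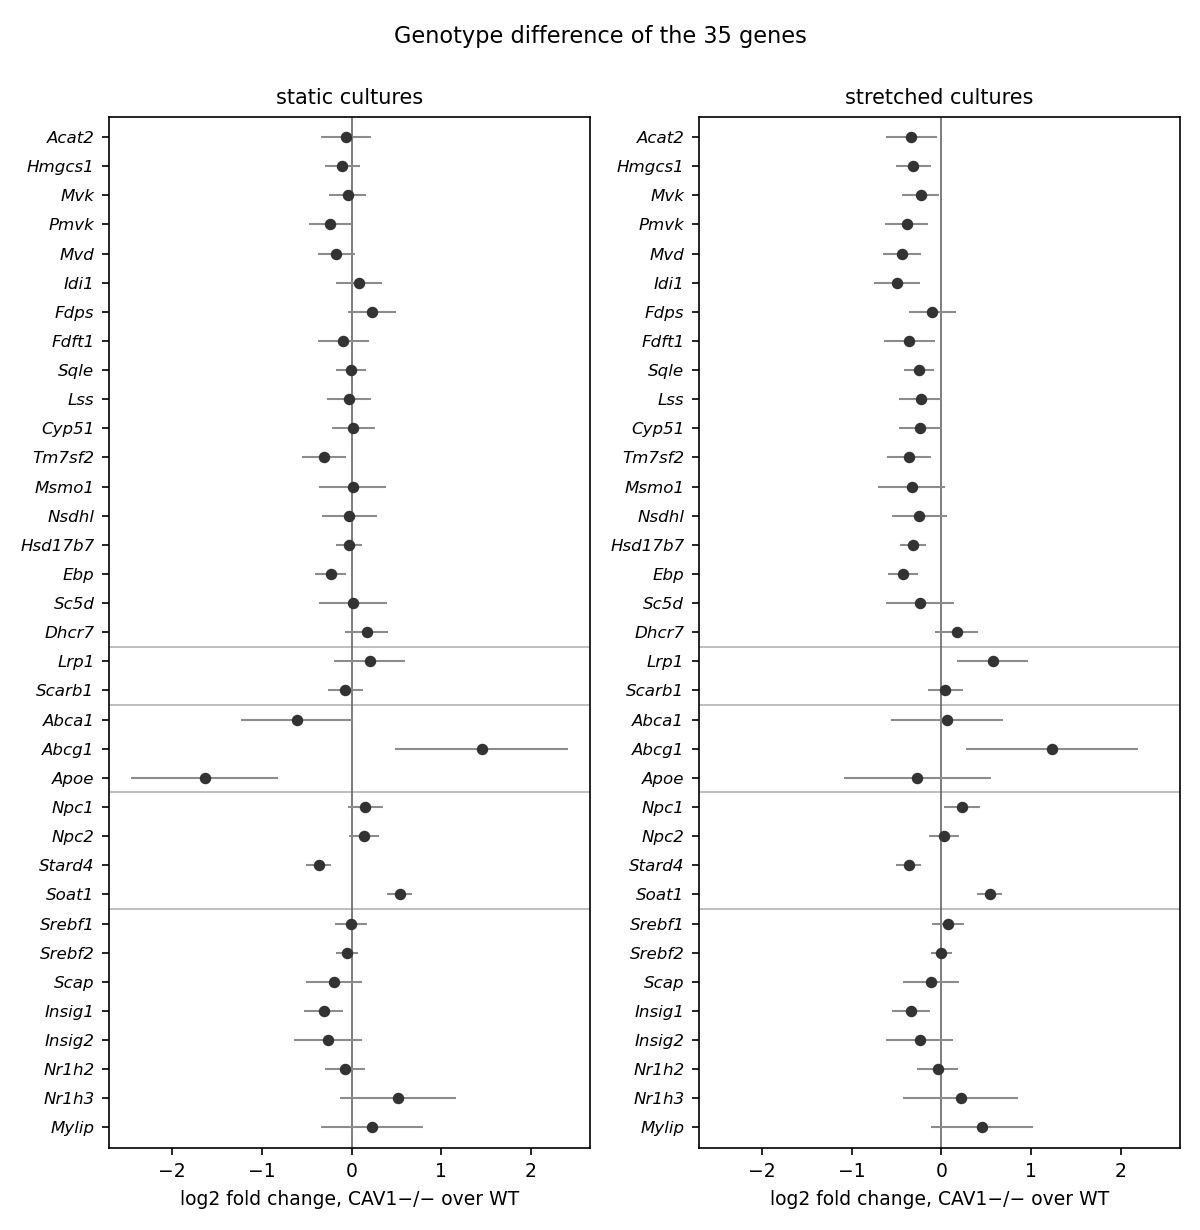
Log2 fold change of CAV1−/− over WT MCs (points) with its standard error from limma (bars) for the 35 genes, in static cultures on the left and in stretched cultures on the right. Most enzymes lie near 0 in static cultures and below 0 in stretched ones, and Soat1 and Stard4 keep values near 0.54 and −0.36 in both.

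Soat1, the enzyme that esterifies cholesterol for storage in droplets (ENSMUSG00000026600, GRCm38 chr1:156424525-156474331), was the member that separated the genotypes upwards. The TMM-normalized CPM were 215 and 239 in static and 283 and 268 in stretched WT cultures, and at 343 and 315 in static and 364 and 439.5 in stretched CAV1−/− cultures. Every CAV1−/− culture was therefore above every WT culture. This held for 1 of the 35 members (2.86%) and for 3.86% of all genes, so it was no more frequent among the members. The group means were 227 ± 16.9 and 329 ± 19.7 in static cultures and 275 ± 10.9 and 402 ± 53.3 in stretched ones (WT and CAV1−/−, SD, n = 2). The log2 fold change of CAV1−/− over WT was 0.53 in static (SE 0.14, adjusted p = 0.316 from limma) and 0.54 in stretched cultures (SE 0.14, adjusted p = 0.423 from limma). DESeq2 gave adjusted p = 0.0487 and 0.0494 for the same comparisons, in which it called 2.33% and 1.76% of all genes. Over 22 alternative settings the log2 fold change stayed between 0.46 and 0.61 in static and between 0.40 and 0.67 in stretched cultures. Without both cultures of CAV1−/− 1, the animal with the highest leukocyte markers, it was 0.47 in static and 0.67 in stretched cultures. That leaves only CAV1−/− 2 for its genotype. The leukocyte markers summed to 309 and 340 in CAV1−/− 2, to 76.6 and 81.6 in WT 2 and to 453 and 469 in WT 1. Their part in the values of Soat1 was not tested. Soat1 was also higher on stretch in all 4 animals, by 0.40, 0.16, 0.09 and 0.48 on the log2 scale in WT 1, WT 2, CAV1−/− 1 and CAV1−/− 2.

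Stard4, a carrier that moves cholesterol between membranes and an SREBP target, separated the genotypes downwards. It was at 106 and 86.2 in static and at 108 and 93.8 in stretched WT cultures, and at 72.3 and 75.7 in static and 76.2 and 80.3 in stretched CAV1−/− cultures. All 4 CAV1−/− values lay under the lowest WT value, as was the case for 1 of the 35 members (2.86%) and for 5.88% of all genes. Its log2 fold change was −0.36 in both comparisons (SE 0.14, adjusted p = 0.565 in static and 0.745 in stretched cultures from limma). The mesothelial marker sum, at most 1177 in CAV1−/− and at least 3115 in WT cultures, also separated the genotypes, downwards like Stard4 and opposite to Soat1. Its part in the results of Soat1 and Stard4 was not tested. The lysosomal genes had no such separation. Npc2 was at 478 to 626 over the 8 cultures, and Npc1, which passes cholesterol on from Npc2, at 67.8 to 101.

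The 3 efflux genes had no common direction in any comparison, and none was called. Abca1, which lipidates apolipoprotein A-I (ENSMUSG00000015243, GRCm38 chr4:53030787-53159895), was at 103 and 131 in static and at 30.3 and 127 in stretched WT cultures, and at 90.5 and 64.0 in static and 74.6 and 56.7 in stretched CAV1−/− cultures. All 4 animals were lower on stretch, but only WT 1 by more than 0.3 on the log2 scale (−1.73). The WT log2 fold change was −0.89 (SE 0.62, adjusted p = 1.0 from limma) and became 0.13 without the stretched culture of WT 1. In the same stretched culture 16 of the 18 enzymes of synthesis were at their highest.

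Apoe (ENSMUSG00000002985, GRCm38 chr7:19696109-19699188) was at 238 and 202 in static and at 92.8 and 188 in stretched WT cultures. CAV1−/− MCs had 131 and 37.0 in static and 217 and 55.0 in stretched cultures. It was thus lower on stretch in both WT animals and higher in both CAV1−/− animals, and it was the only member with this pattern, which 4.87% of all genes had. The interaction was 1.37 on the log2 scale (SE 1.16, adjusted p = 1.0 from limma). With the animal as a block its unadjusted p was 0.00901 and its adjusted p 0.947 from limma, so it was not called in either fit. In static cultures the log2 fold change of CAV1−/− over WT was −1.64 (SE 0.82, adjusted p = 0.711 from limma), and both WT values were above both CAV1−/− values. Macrophages also make Apoe, and the leukocyte markers summed to 4863 and 4874 in CAV1−/− 1. The level of Apoe was higher there than in CAV1−/− 2, and its −1.64 became −2.53 without CAV1−/− 1. The part of the leukocyte markers in these values was not tested.

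**Figure D4:**
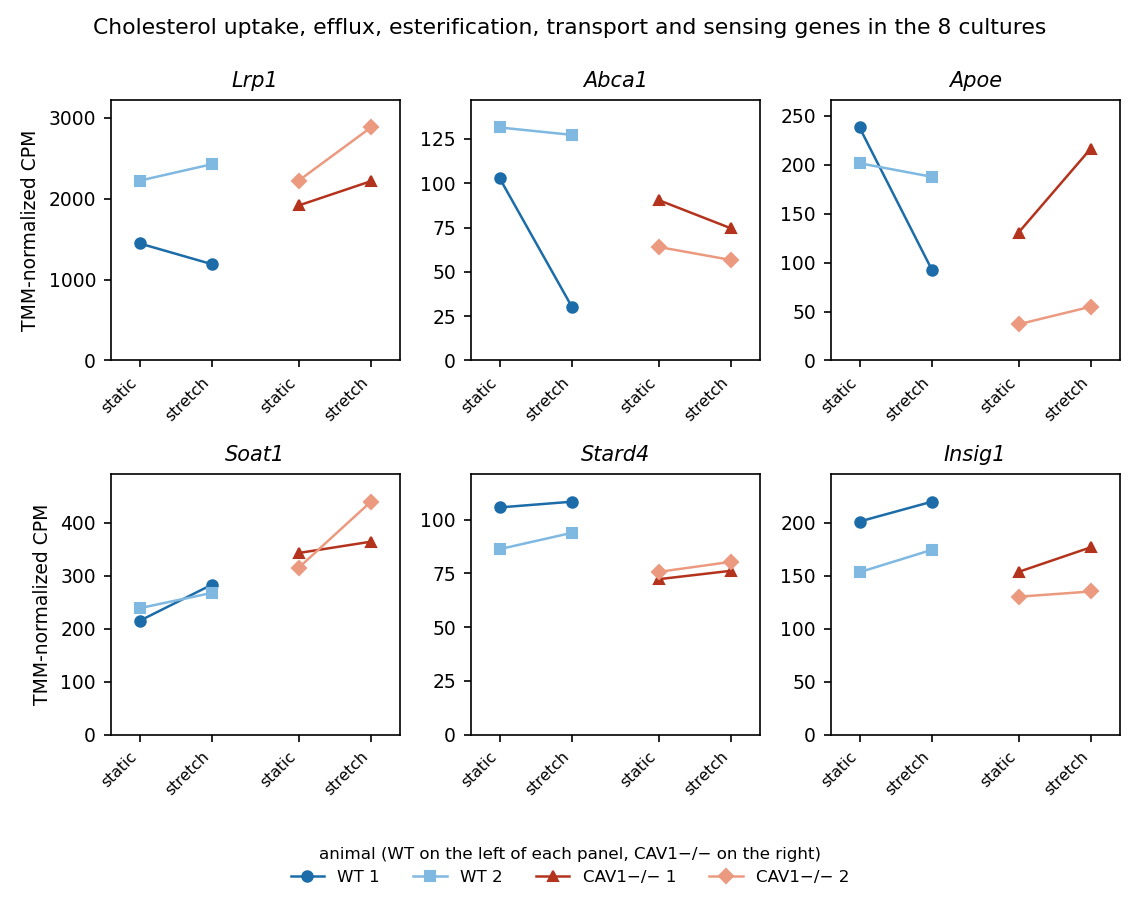
TMM-normalized CPM of 6 genes of cholesterol uptake, efflux, esterification, transport and sensing in the 8 cultures, with a line joining the static and the stretched culture of each animal. Soat1 is higher and Stard4 lower in all CAV1−/− cultures, and the lines of Apoe go down in both WT animals and up in both CAV1−/− animals.

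Abcg1 and Nr1h3 were low in 6 of the 8 cultures and high in CAV1−/− 1. Abcg1 was at 13.5 and 13.3 in the static and stretched culture of CAV1−/− 1 and at 0.97 to 2.19 in the other 6 cultures. Nr1h3 was at 3.05 and 3.98 in CAV1−/− 1 and at 0.60 to 1.60 elsewhere, from 6 reads upwards. Npc1 was at 101 and 99.1 in CAV1−/− 1 and at 67.8 to 88.1 elsewhere, a much smaller step. Having both cultures of CAV1−/− 1 above the other 6 was a pattern of 3 of the 35 members and of 12.2% of all genes. The log2 fold change of Abcg1 in static cultures, 1.45 (SE 0.96, adjusted p = 0.811 from limma), became 0.22 without CAV1−/− 1. All 15 leukocyte markers had the same pattern, for example Lyz2 with 3648 and 3920 TMM-normalized CPM in CAV1−/− 1 and at most 345 elsewhere. Their part in the values of Abcg1, Nr1h3 and Npc1 was not tested.

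**Figure D5:**
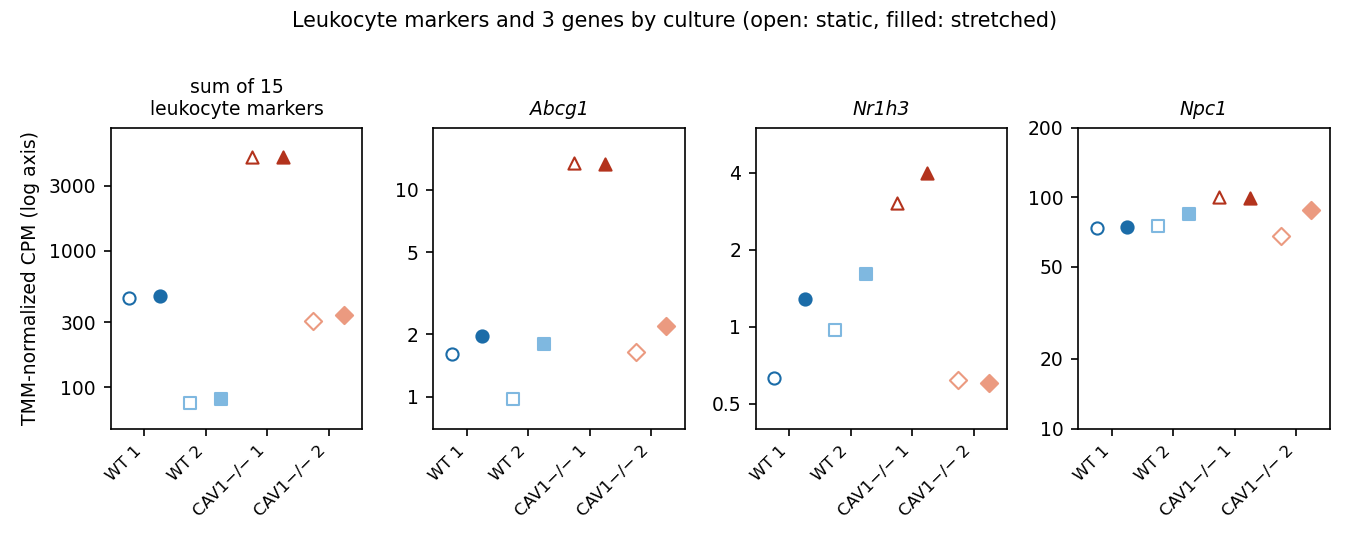
TMM-normalized CPM (log axes with a different range in each panel) of the summed 15 leukocyte markers and of Abcg1, Nr1h3 and Npc1 in the static (open) and stretched (filled) culture of each animal. Both cultures of CAV1−/− 1 are highest in every panel, with a marker sum of 4863 and 4874 against at most 469 in the others.

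The uptake receptors had a common direction in some comparisons only. Both were below 0 for stretch in WT MCs (Lrp1 −0.08, Scarb1 −0.16). They were above 0 for genotype in stretched cultures (0.57 and 0.04) and for the interaction (0.37 and 0.11). In the other comparisons their signs differed, and neither was called. Lrp1 was at 1447 and 2223 in static and at 1190.3 and 2426 in stretched WT cultures, and at 1915 and 2222 in static and 2216 and 2880.0 in stretched CAV1−/− cultures. It was lower on stretch in WT 1 and higher in the other 3 animals, with a log2 fold change of CAV1−/− over WT of 0.57 in stretched cultures (SE 0.40, adjusted p = 0.958 from limma), which became 0.06 without the stretched culture of WT 1. Scarb1, the HDL receptor, was at 50.5 to 72.0 over the 8 cultures with no separation of the groups.

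Among the regulators of the pathway Srebf2 varied least over the cultures. Srebf2 was at 253 to 286 over all 8 cultures and had a mean stretch log2 fold change of −0.02 (SE 0.084, adjusted p = 0.999 from limma). Srebf1 was at 79.0 to 108. Scap was at 81.8 and 119 in static and at 64.3 and 105 in stretched WT cultures, and at 71.9 and 102 in static and 69.4 and 83.1 in stretched CAV1−/− cultures, lower on stretch in each animal by 0.05 to 0.34 on the log2 scale. Its windows overlap 5830462I19Rik on the other strand by 9.21%.

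Insig1, itself an SREBP target, was at 201 and 153 in static and at 219.7 and 174 in stretched WT cultures, and at 154 and 130.1 in static and 177 and 135 in stretched CAV1−/− cultures. It was higher on stretch in each animal, like 8 of the enzymes, with a mean log2 fold change of 0.14 (SE 0.15, adjusted p = 0.999 from limma). Insig2, a second retention protein that SREBPs do not drive, was at 30.4 to 61.6 and lower on stretch in each animal, by 0.01 to 0.22. Nr1h2 was at 49.9 to 73.6 and Mylip at 2.94 to 10.2, the latter with 2.94 and 3.06 in WT 1 and 10.2 and 7.89 in WT 2.

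Of the wider sterol and isoprenoid genes, 40 listed ones had values, and 18 of them were higher and 22 lower on stretch in WT MCs (median −0.01). That list, which holds oxysterol-binding proteins, SREBP proteases and prenyl transferases, thus had no common direction. Between the genotypes 20 were higher and 20 lower in static CAV1−/− cultures (median 0.00), and limma called none in any comparison. The largest differences among them in static cultures were those of Ch25h, which makes 25-hydroxycholesterol (1.44, adjusted p = 0.511 from limma), Lipa, the lysosomal acid lipase (1.33, adjusted p = 0.627), and Cyp7b1, an oxysterol hydroxylase (1.21, adjusted p = 0.804). Lipa was highest in both cultures of CAV1−/− 1, as were the leukocyte markers, whose part in its value was not tested. Cyp7b1 was high in CAV1−/− 2 only, with 6.68 in its static and 5.20 in its stretched culture against 0.39 to 1.90 elsewhere.

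Fatty acid synthesis genes under SREBP and LXR control had 13 of 15 listed members with values. On stretch 11 of them were higher in WT MCs (median 0.17, against 46.8% of all genes) and 12 in CAV1−/− MCs (median 0.09, against 50%), with none called by limma. Without CAV1−/− 1 the CAV1−/− count was 7 of 13 with a median of 0.01, and without WT 1 the WT median was 0.06. Their sum was 2357 and 2108 in static and 2990 and 2247 in stretched WT cultures, so WT 1 again had the larger step. For the 18 enzymes the corresponding sums were 2027 and 1656 in static and 2903 and 1970 in stretched WT cultures, and 1725 and 1942 in static and 1945 and 1990 in stretched CAV1−/− cultures. Caveolar genes went the other way. On stretch 6 of 7 were lower in WT MCs (median −0.29), against 7276 of 13665 genes. In CAV1−/− MCs 5 of 7 were lower (median −0.19), against 6837 of 13665 genes, and 4 of 7 without CAV1−/− 1. None was called by limma without a block. With the animal as a block Cav1 itself and Sdpr, a cavin of the caveolar coat, were called lower for the mean stretch difference. That fit called 117 of 13665 genes lower. The mean includes the CAV1−/− cultures, where Cav1, the targeted gene, was at 12.8 to 34.5.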

How the data were processed

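RNAseq was performed on MCs of 2 WT and 2 CAV1−/− mice, 1 static and 1 stretched culture each, as the labels give them. The study states another number of samples for this experiment, and the difference was not resolved here. Per the methods of the study, the authors trimmed reads with Cutadapt v1.3 (reads under 30 bp were dropped), mapped them to the transcriptome GRCm38.76, estimated reads per gene with RSEM v1.2.25 and normalized them with edgeR's TMM. The deposited values are therefore a normalized signal, TMM-normalized CPM, for 13687 genes. Whether strand was used in counting is not given in the sources used here. Values step by what 1 read is worth in a library, so reads were recovered (100% of values whole within 0.001 read). A floor of 3 reads equals 0.146 to 0.308 TMM-normalized CPM and covers counting error only.

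Log2(value + 1) was fitted with limma 3.58.1 (R 4.3.3) over 13665 genes with 1 mean per group, an intensity trend and 4 residual degrees of freedom. The 6 comparisons were stretch in each genotype, genotype without and with stretch, their interaction and the mean stretch difference. No replicate block was used. Static and stretched cultures of an animal are pairs by the labels and deviated together (r = 0.7026 in WT, 0.85 in CAV1−/−), so results that change with the animal as a block are given with it. Limma, edgeR and DESeq2 were run on simulated counts with known genotype changes, drawn independently for each library. Only the static genotype comparison was read there. Unchanged genes made up a larger share of the calls of DESeq2 than of those of limma or edgeR. Stretch comparisons and the fit with the animal as a block were not assessed in this way. Alternatives were pseudocounts of 0.1 and 5, no filter, a mean of at least 5, median-of-ratios and quantile normalization, eBayes without trend, the block, only the 4 libraries of a comparison, edgeR 4.0.16 and DESeq2 1.42.0 on the recovered reads, and each culture left out. Leaving out both cultures of WT 1 or of CAV1−/− 1 was added after seeing the values. With 2 cultures against 2 an exact permutation test cannot give a two-sided p below 0.333. The 35 members and the lists were chosen with earlier results of these data known. Every member is named. All 8 values are given for members whose genotypes did not overlap, for those that moved one way in the 4 animals with a mean stretch difference beyond 0.3, and for up to 3 per role with the highest level per kb or the largest genotype difference. Scap was added after its values were seen. Exon lengths, shared 61-base windows and overlaps come from GENCODE M21 (GRCm38), and promoters from RefSeq.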

Additional observations from a re-analysis of the deposited data

Results flagged for a closer look

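Apoe was singled out because every animal of one genotype moved one way on stretch and every animal of the other the opposite way. It differed by −1.35 and −0.10 on the log2 scale in WT 1 and WT 2 and by 0.72 and 0.56 in CAV1−/− 1 and CAV1−/− 2. The difference between the genotypes was 1.37 (SE 1.16, unadjusted p = 0.282, adjusted p = 1.0 from limma). With the animal as a block the unadjusted p was 0.00901 and the adjusted p 0.947. The value was 0.74 without both cultures of WT 1 and 1.29 without both of CAV1−/− 1. It was the only such member, and 4.87% of all genes had the pattern.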

How the results depend on the processing

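There were 14 summary values (members called, medians and counts of non-overlapping or same-direction members). Under all alternatives 255 recomputed values stayed near the main value and 13 did not. A count had to stay within a set ratio of the main one, and a median had to shift by less than its spread between animals. The side of 0 was not checked, so a median near 0 could change sign and still be counted as near. The median for genotype without stretch was −0.0277 in the main fit and 0.0318 without both cultures of CAV1−/− 1. DESeq2 called 1 member in static and 1 in stretched genotype comparisons (Soat1). The replicate block, with the animal as the pair, called 1 member for the mean stretch difference (Cyp51, adjusted p = 0.0437 from limma) and changed no other call of a member. For the genotype comparisons the block could only follow the replicate number, which no label ties to a shared litter or day (r = 0.522 in static, 0.4841 in stretched cultures), and with it 246 and 110 of all genes were called, against 10 and 8, but 0 members. Without both cultures of WT 1 the median of the 35 members was 0.13 for stretch in WT and 0.0068 for genotype on stretch, and without both of CAV1−/− 1 that for stretch in CAV1−/− was −0.0073. Leaving out each culture in turn gave medians from 0.0058 to 0.32 for stretch in WT, from −0.37 to 0.0068 for genotype on stretch, from −0.24 to 0.0306 for the interaction, from −0.13 to 0.0488 for genotype without stretch, from 0.0131 to 0.10 for stretch in CAV1−/− and from 0.0428 to 0.21 for the mean stretch difference. The values nearest 0 for stretch in WT and for genotype on stretch, and the positive one for the interaction, came from leaving out the stretched culture of WT 1, as did the reversal of Abca1 in WT (from −1.90 without the other stretched WT culture to 0.13). A lone culture was assumed to vary like the other groups. Beyond the alternative's own construction the cause was not tested. The fit without a block has 4 residual degrees of freedom and that with the animal as a block 2, which limits what either can call.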
